A study of Mus musculus with 8 samples.

Results

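Fos, Fosb, Jun, Junb, Jund, Klf6, Dusp1, Ier2, Ier3 and Egr1 are immediate early genes, and their messenger RNA was followed here through the haematopoietic stem and progenitor cells of mice kept under different housing conditions. All 10 were found among the 27998 genes of the count table. They were chosen by the measured CVT to SPF differences in the levels of these genes across progenitor states and within pools 1 to 4 and 5 to 8 of the same cells, and 6 of them stand in the study's own lists of genes higher in CVT mice (Fosb and Jund for KL cells, Klf6, Jund, Fos and Dusp1 for LTHSC, Jun for GMP), so their difference between housing groups is given as a description and not as evidence of its direction. KL cells are bone marrow cells sorted for c-Kit and against CD3, CD4, CD8, CD45R, CD11b, TER119 and GR1, a gate that holds haematopoietic stem cells and the progenitors of the blood lineages. The cells came from female B6 mice of 3 to 4 months. CVT mice had been moved from the specific-pathogen-free facility for one month and co-housed with conventionally born mice in a conventional facility, and SPF mice had stayed in the specific-pathogen-free facility. By the sample labels each group had 10 mice, whose cells were combined before sequencing into pools of 2 or 3 mice, 4 pools per group, and the pool is the replicate in every value below. A figure legend of the study gives a smaller number of mice per group. Pools 1, 2, 7 and 8 were SPF and pools 3, 4, 5 and 6 were CVT. Pools 1 to 4 and pools 5 to 8 each hold 2 SPF and 2 CVT pools, and values are given over all 8 pools and within each of these sets. Each cell was assigned to a pool through the last digit of its name in the table, taken as the number in the sample label, and all values by housing rest on that assignment.

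Immediate early genes are transcribed within minutes of a stimulus without new protein synthesis, through transcription factors that already sit on their promoters and are activated by kinases. FOS and FOSB pair with JUN, JUNB or JUND to form AP-1, a leucine zipper factor that binds DNA as a dimer, and FOS proteins need a JUN partner because they do not dimerise with themselves. EGR1 and KLF6 are zinc finger factors, DUSP1 is a phosphatase that switches off the MAP kinases upstream of AP-1, IER3 is a stress-induced regulator of cell survival, and IER2 is a small nuclear protein. In blood formation EGR1 is known for keeping stem cells quiescent in the niche, JUNB restrains the growth of myeloid cells, and the whole group is also known to respond to the dissociation and sorting of tissue.

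Promoter sequences are given for 5 of the genes, because the signal-dependent control of immediate early genes works through short motifs next to the start of transcription. RefSeq (GRCm38.p6, a later build than the mm9 named in the submitters' notes for the counts, which carry no coordinates) held a promoter for 8 of the 10 genes, and Egr1 and Ier2 had no entry. The 250 bases before each start were searched on both strands for TGACNTCA, a pattern that takes in the cAMP response element TGACGTCA and also TGACATCA. The search also covered the core TGACG of that element (which lies inside TGACGTCA but not inside TGACATCA) and the AP-1 element in its form TGACTCA. The serum response CArG box and the TATA motif TATAAA were searched as well. Capitals mark the matches, each sequence is written 5′ to 3′ on the strand of its gene, from 10 bases before its first match up to the base before the start.
Fos, chr12:85473751-85473889, plus strand: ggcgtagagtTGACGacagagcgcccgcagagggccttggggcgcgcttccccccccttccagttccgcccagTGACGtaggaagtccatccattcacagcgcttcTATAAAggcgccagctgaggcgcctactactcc
Jun, chr4:95052223-95052277, minus strand: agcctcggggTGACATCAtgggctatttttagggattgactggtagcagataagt
Junb, chr8:84978749-84978864, minus strand: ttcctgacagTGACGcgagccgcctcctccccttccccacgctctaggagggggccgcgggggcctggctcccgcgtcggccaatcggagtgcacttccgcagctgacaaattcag
Klf6, chr13:5861360-5861488, plus strand: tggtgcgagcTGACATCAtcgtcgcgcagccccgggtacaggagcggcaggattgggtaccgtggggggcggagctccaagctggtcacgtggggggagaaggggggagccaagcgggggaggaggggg
Dusp1, chr17:26508473-26508673, minus strand: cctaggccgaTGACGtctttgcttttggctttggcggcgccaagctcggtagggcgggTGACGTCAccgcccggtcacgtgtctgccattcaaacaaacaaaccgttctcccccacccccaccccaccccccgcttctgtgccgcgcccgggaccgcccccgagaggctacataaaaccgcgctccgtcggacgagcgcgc
The Dusp1 promoter holds a full TGACGTCA 143 bases upstream of the start and a further TGACG at 191 bases. Those of Jun and Klf6 hold TGACATCA, at 45 and 119 bases. Fos holds TGACG at 129 and 66 bases and TATAAA at 33 bases, and Junb holds TGACG at 106 bases. Fosb holds it 60 bases before the tabulated start, a position that lies inside the annotated gene. No match was found for Jund and Ier3, and none of the 8 held TGACTCA or a CArG box in this window. Of 32851 RefSeq promoters of the same length, TGACG was found in 17.77%, TGACNTCA in 7.488%, TATAAA in 12.37%, TGACTCA in 4.463% and the CArG box in 1.467%. A match describes letters only and says nothing of what binds there.

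The table held 29891 cells, 12331 from SPF and 17560 from CVT pools, with 2759 to 49732 UMIs (unique molecular identifiers, each a counted transcript) per cell. Totals ran from 19041749 UMIs in pool 1 to 59812346 in pool 4, and the median per cell from 7529.5 in pool 1 to 12771.5 in pool 4. Kit, the gene of the sorted receptor, had a UMI in 48.9% to 52.6% of the cells of a pool, and the median share of mitochondrial UMIs was 2.66% to 3.02%. Cells were grouped into 38 clusters with the 10 genes, their relatives and the heat shock genes left out of the clustering, and 10 classes named by marker genes had at least 20 cells in every pool and held 26719 cells together. RNA of late erythroid and mature granulocyte genes was present in all pools and differed between them. It was summed over all cells, so it takes in captured cells of those kinds as well as any free RNA. Pool 4 held 93 late granulocyte-like cells among 4176, and pool 7 held 251 among 2064. The summed level of 7 late erythroid genes was 163 to 197 CPM (a gene's UMIs scaled to the same total in every pool) in pools 1 to 4 and 1572 to 4536 CPM in pools 5 to 8, and that of 12 genes of mature granulocytes ranged from 5765 CPM in pool 4 to 45646 CPM in pool 7.

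Fos and Fosb encode the partners that bring transactivating strength to AP-1. The level of Fos in the summed KL cells was 71.8, 128.7, 94.6 and 130.6 CPM in SPF pools 1, 2, 7 and 8 and 136.6, 200.1, 114.8 and 43.8 CPM in CVT pools 3, 4, 5 and 6. The highest and the lowest pool of Fos were thus both CVT pools, and the SPF pools lay between them. Fosb varied most of all 10 genes, with 25.5, 62.6, 32.5 and 39.7 CPM in the SPF pools and 89.1, 108.6, 27.7 and 13.8 CPM in the CVT pools, a 7.85-fold range over the 8 pools. In pools 1 to 4 both CVT pools of Fosb were above both SPF pools, and in pools 5 to 8 both were below. Over all 8 pools Fos averaged 124 ± 64.5 CPM in CVT and 106 ± 28.4 CPM in SPF mice (SD, n = 4), and Fosb 59.8 ± 46.1 and 40.1 ± 16.1 CPM, differences smaller than the SD of the CVT pools.

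The Jun family supplies the other partner of the dimer. Jun had levels of 157.3, 236.7, 173.4 and 220.6 CPM in SPF pools 1, 2, 7 and 8 and of 264.2, 363.6, 194.1 and 92.3 CPM in CVT pools 3, 4, 5 and 6. Jund, which is known to be present in unstimulated cells, had 68.2, 91.1, 101.7 and 98.4 CPM in SPF and 126.6, 143.1, 103.3 and 60.2 CPM in CVT pools. Both were highest in pool 4 and lowest in pool 6. Junb was more even, with 71.0, 72.1, 67.8 and 74.5 CPM in SPF and 89.2, 80.1, 74.3 and 41.6 CPM in CVT pools. The means of Junb were 71.3 ± 20.7 CPM in CVT and 71.4 ± 2.80 CPM in SPF mice (SD, n = 4), so the groups differed in the spread of their pools more than in their level. Jun averaged 229 ± 114 and 197 ± 37.7 CPM and Jund 108 ± 36.0 and 89.9 ± 15.1 CPM in CVT and SPF mice.

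Klf6 and Dusp1 had the same highest and lowest pools as Jun, pool 4 and pool 6. Klf6 had 20.7, 29.9, 27.6 and 33.7 CPM in SPF pools 1, 2, 7 and 8 and 32.1, 59.9, 34.9 and 18 CPM in CVT pools 3, 4, 5 and 6. Dusp1, the feedback phosphatase, had 19.8, 38.3, 33.2 and 38.6 CPM in SPF and 44.3, 65.5, 40.8 and 14.0 CPM in CVT pools. The range over the 8 pools was 3.33-fold for Klf6 and 4.68-fold for Dusp1, against 4.57-fold for Fos and 3.94-fold for Jun. Ier2, Ier3 and Egr1 moved less. Ier2 had 112.7, 118.9, 127.0 and 137.4 CPM in SPF and 128.8, 136.6, 147.3 and 87.9 CPM in CVT pools. The values of Ier3 were 18.4, 23.8, 24.1 and 28.5 CPM in SPF and 28.0, 26.3, 26 and 18.9 CPM in CVT pools. Egr1 had 23.6, 25.3, 26.4 and 28.5 CPM in SPF and 24.1, 29.4, 34.2 and 16.4 CPM in CVT pools. These 3 genes ranged over the pools by 1.68-fold, 1.54-fold and 2.08-fold, and the highest pool of Ier2 and of Egr1 was CVT pool 5.

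**Figure D1:**
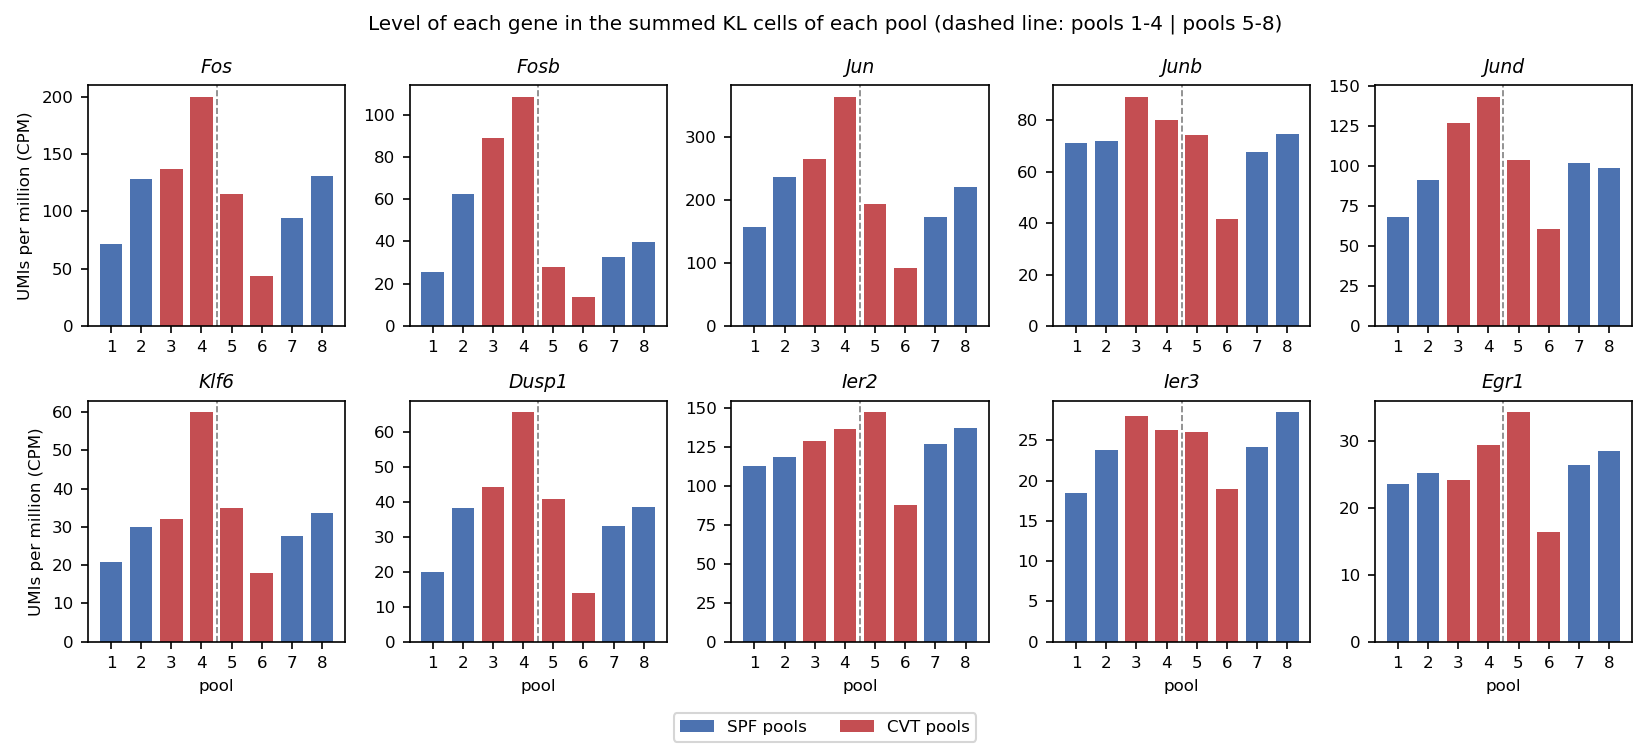
Level of each of the 10 genes in CPM (vertical axis, starting at 0) in the summed KL cells of pools 1 to 8 (horizontal axis), SPF pools in blue and CVT pools in red, with a dashed line between pools 1 to 4 and pools 5 to 8. CVT pool 4 is the highest bar for 6 genes and CVT pool 6 the lowest for 9, and for every gene but Ier3 both ends of the range are red bars.

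Summed over the 10 genes, the level was 589, 827, 708 and 830 CPM in the SPF pools and 963, 1213, 798 and 407 CPM in the CVT pools, a 2.98-fold range. The CVT mean of 845 ± 338 CPM exceeded the SPF mean of 739 ± 115 CPM (SD, n = 4) by less than either SD. Pool 4 had the highest level for 6 genes and pool 6 the lowest for 9, all but Ier3, whose lowest pool was pool 1. Both ends were in these pools for 6 of the 10, beside 2.45% of the 13092 genes tested. No gene of the 10 had all 4 CVT pools on one side of all 4 SPF pools, as 6.16% of all genes did. In edgeR's quasi-likelihood test over the 8 pools none of the 10 passed an adjusted p of 0.05, and 0% of the 13092 genes did. At an unadjusted p under 0.05 the test had 392 genes higher and 529 lower in CVT mice, none of them among the 10, and DESeq2 called 5 genes higher and 10 lower, again none of the 10. The log2 fold changes, CVT minus SPF, were 0.27 ± 0.38 (SE) for Fos, 0.63 ± 0.56 for Fosb, 0.27 ± 0.34 for Jun, 0.05 ± 0.19 for Junb, 0.32 ± 0.24 for Jund, 0.42 ± 0.31 for Klf6, 0.39 ± 0.39 for Dusp1, 0.06 ± 0.14 for Ier2, 0.11 ± 0.15 for Ier3 and 0.05 ± 0.19 for Egr1. Their median was 0.27, beside -0.012 over all genes tested, and every adjusted p lay between 0.794 and 0.966 (edgeR).

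Within pools 1 to 4, 9 of the 10 genes (all but Egr1) had both CVT pools above both SPF pools, an order that 14.6% of all tested genes showed. The ratio of the CVT mean to the SPF mean was 2.24 for Fosb, 1.89 for Dusp1, 1.82 for Klf6, 1.69 for Jund, 1.68 for Fos and 1.59 for Jun. It was 1.29 for Ier3, 1.18 for Junb, 1.15 for Ier2 and 1.10 for Egr1, so the genes fall into a group of 6 with large ratios and a group of 4 nearer to 1. Within pools 5 to 8 every ratio was below 1, from 0.575 for Fosb, 0.704 for Fos and 0.727 for Jun to 0.890 for Ier2 and 0.922 for Egr1. Only Fosb had both CVT pools below both SPF pools there, an order shown by 24% of all genes, and the other 9 overlapped, with pool 5 within or above the range of the SPF pools and pool 6 below it. The fitted log2 differences ran from 0.21 ± 0.26 (SE) for Egr1 to 1.21 ± 0.37 for Fosb in pools 1 to 4, with a median of 0.78. In pools 5 to 8 they ran from -0.79 ± 0.39 for Fosb to -0.10 ± 0.26 for Egr1, with a median of -0.28. None of the 10 was called in either set, where 0.199% and 0% of all genes were, nor for the difference between the sets (0% of all genes). At an unadjusted p under 0.05, 6 of the 10 differed in pools 1 to 4, where 1075 of all 13092 genes were higher and 1266 lower, and none in pools 5 to 8, where 334 were higher and 530 lower. The difference between the sets reached that level for 6 of the 10, in a test that gave 505 genes with a positive and 683 with a negative difference. The coefficient of pools 5 to 8 against pools 1 to 4 was called for none of them and for 20.2% of all genes.

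**Figure D2:**
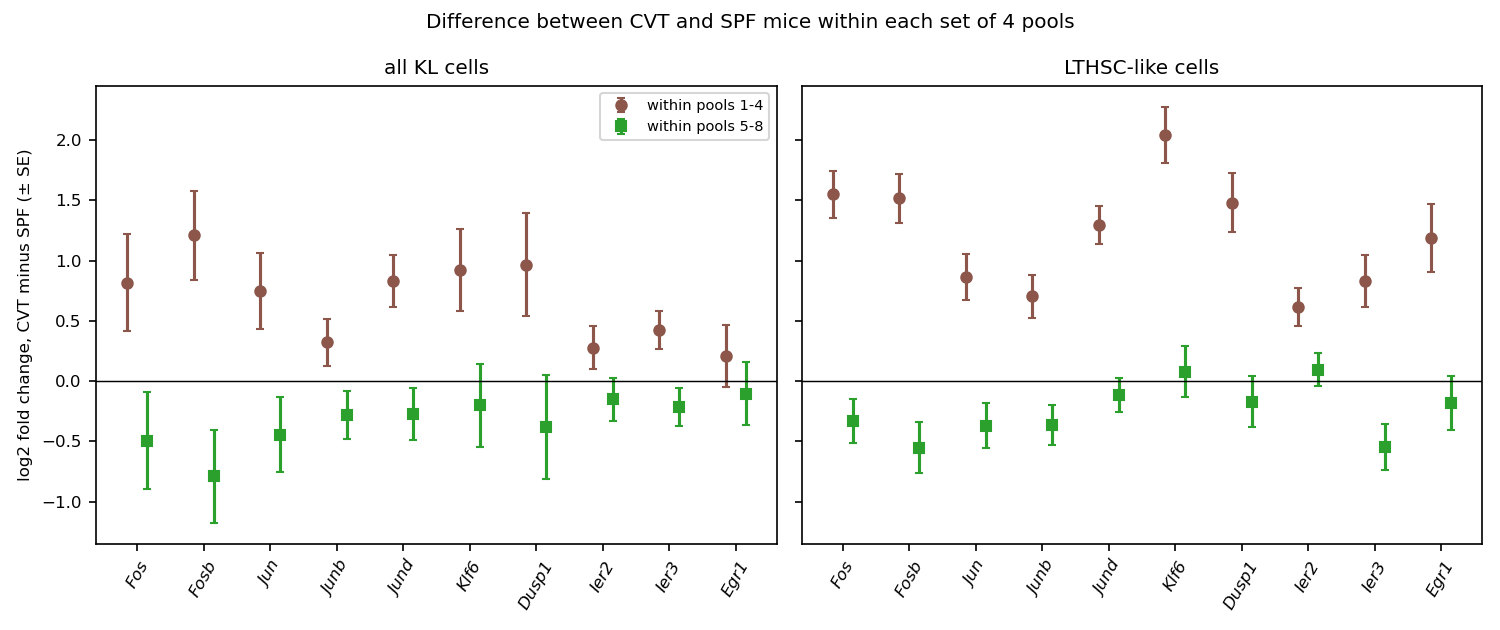
Log2 fold change of each gene, CVT minus SPF (vertical axis, points with bars of 1 standard error from edgeR), within pools 1 to 4 (brown circles) and within pools 5 to 8 (green squares), in all KL cells (left) and in LTHSC-like cells (right). In KL cells all 10 brown points lie above 0 and all 10 green points below it, and in LTHSC-like cells the brown points lie higher, up to 2.04 for Klf6.

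Leaving out pool 6 turned the sign within pools 5 to 8 for 7 of the 10 genes in KL cells, and the median log2 difference became 0.067. Leaving out pool 5 kept all 10 negative with a median of -0.74. In LTHSC-like cells all 10 were then negative within pools 5 to 8 too, from -0.97 to -0.16 with a median of -0.65, Junb having -0.93 ± 0.18 (SE). Either omission leaves a single CVT pool in that set. In KL cells of pools 1 to 4 all 10 differences were positive whichever pool was left out, with medians of 0.47 to 1.10. Pool 4, the highest, also had the deepest cells and pool 6 a middle depth, and with every cell thinned to 2759 UMIs the mean number of the 10 genes with a UMI in a cell was 2.74 in pool 4 and 1.14 in pool 6, again the ends of the range. The make-up of the pools differed as well, so the levels were recomputed with the same share of each class in every pool. The log2 ratio of the mean summed level, CVT over SPF, was then 0.78 in pools 1 to 4 and -0.28 in pools 5 to 8, and that of Fosb 1.35 and -0.71. These are ratios of means and another measure than the fitted medians above. The summed levels of pools 1 to 4 moved from 589, 827, 963 and 1213 CPM to 599, 785, 1053 and 1331 CPM. Those of pools 5 to 8 moved from 798, 407, 708 and 830 CPM to 780, 414, 683 and 762 CPM.

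LTHSC-like cells, the class with the long-term stem cell markers Procr, Hlf and Mecom, numbered 81 to 366 per pool. The fitted differences within pools 1 to 4 were larger there than in the whole gate for each of the 10 genes, a comparison that was not tested, and the class was defined without any of them. This was not particular to the class. The median of the 10 was 1.24 there and 0.78 in the whole gate, and every other class but erythroid-like cells (0.38) also exceeded the gate. It was 1.26 in late granulocyte-like, 1.09 in megakaryocyte-like, 1.04 in GMP-like and 1.03 in MPP-like cells. Klf6 had 34.2 and 49.2 CPM in SPF pools 1 and 2, 133 and 220 CPM in CVT pools 3 and 4, 75.8 and 51.5 CPM in CVT pools 5 and 6, and 49.8 and 67.8 CPM in SPF pools 7 and 8. In the same order of pools, Fos had 126 and 278, then 501 and 737, then 269 and 164, and last 232 and 312 CPM. Both genes were above every SPF pool in pools 3 and 4, while pools 5 and 6 lay within the range of the 4 SPF pools, except for Klf6 in pool 5. Fosb read 43.3 and 110, 205 and 275, 61.2 and 51.5, and 78.8 and 88.9 CPM in that order. Jund read 144 and 206, 360 and 505, 258 and 188, and 257 and 246 CPM, and Dusp1 36.0 and 84.1, 135 and 230, 105 and 60.8, and 81.6 and 103 CPM. For each of these 5 genes the highest pool was pool 4 and the lowest of the 8 was SPF pool 1, so the contrast in pools 1 to 4 sets the extremes against each other.

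Jun in LTHSC-like cells had 224 and 469 CPM in SPF pools 1 and 2, 547 and 745 CPM in CVT pools 3 and 4, 390 and 220 CPM in CVT pools 5 and 6, and 326 and 464 CPM in SPF pools 7 and 8. Junb had 151 and 197, 290 and 275, 184 and 93.7, and 163 and 197 CPM. Egr1, the quiescence factor, had 37.9 and 44.4, 98.5 and 87.5, 79.4 and 32.1, and 56.7 and 68.7 CPM. Ier3 ranged from 42.9 CPM in pool 5 to 103 CPM in pool 3 and Ier2 from 150 CPM in pool 1 to 295 CPM in pool 4. All 10 genes had both CVT pools above both SPF pools in pools 1 to 4, beside 14.7% of the genes with a mean of at least 20 CPM in this class. In pools 5 to 8, 2 of the 10 had both CVT pools below both SPF pools, beside 24.2%.

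The fitted log2 differences of LTHSC-like cells within pools 1 to 4 were 2.04 ± 0.23 (SE) for Klf6, 1.55 ± 0.19 for Fos, 1.52 ± 0.20 for Fosb, 1.48 ± 0.24 for Dusp1, 1.29 ± 0.16 for Jund and 0.86 ± 0.19 for Jun. These 6 passed an adjusted p of 0.05 in edgeR, where 0.199% of the 7555 genes tested in the class did. Egr1 (1.19 ± 0.28), Ier3 (0.83 ± 0.22), Junb (0.70 ± 0.18) and Ier2 (0.62 ± 0.16) did not pass. In pools 5 to 8 the differences lay between -0.55 for Fosb and 0.10 for Ier2 and none was called (0.0397% of all genes). The difference between the sets was called for 8 of the 10, all but Ier2 and Egr1, and for 0.185% of all genes. It ran from -2.07 ± 0.29 for Fosb to -1.07 ± 0.24 for Junb among the 8. Since the genes were picked for this contrast, the counts describe these pools. The count of 8 fell to 0, and that of all genes to 0, when SPF pool 8 was left out, with all 10 differences still negative and a median of -1.31 (-1.39 with all pools), and that of 6 in pools 1 to 4 became 4 to 9 over the 8 omissions. Over all 8 pools no gene of the 10 was called in LTHSC-like cells (0.0132% of all genes), where the log2 fold changes were 1.0 ± 0.26 for Klf6, 0.70 ± 0.25 for Fos, 0.60 ± 0.30 for Fosb and 0.56 ± 0.18 for Jund.

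In the other classes of pools 1 to 4 the fitted differences were positive except for Klf6 in late granulocyte-like cells (-0.03 ± 0.21). Fosb was called higher in CVT pools in 7 of the 10 classes, with log2 differences of 1.23 to 1.86, Jund in 6 (0.89 to 1.31) and Jun in 5 (0.86 to 1.16). Dusp1 was called in 4 classes, Fos and Klf6 in 3 each and Junb in 2, while Ier2, Ier3 and Egr1 were called in none. By class, 6 of the 10 genes were called in MPP-like cells (0.322% of all genes), 4 in GMP-like cells (0.0716%), 4 in LMPP-like cells (0.152%), 4 in basophil- and mast-like cells (0.22%), 3 in CMP- and pre-MegE-like cells (0.189%) and 3 in megakaryocyte-like cells (0.101%). None was called in erythroid-, late granulocyte- or monocyte-like cells, where 0% of all genes were. In the erythroid-like class, the largest with 6373 cells, Fosb differed by 0.72 ± 0.40, Jun by 0.45 ± 0.30 and Jund by 0.72 ± 0.19 on the log2 scale. Late granulocyte-like cells had a Fosb difference of 3.09 ± 0.66, the widest of the 10 classes, at levels of 2.17 to 72.8 CPM over the pools.

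Within pools 5 to 8 none of the 10 genes was called in any class. All genes together gave 0.0307% in GMP-like, 0.01% in MPP-like, 0.0169% in basophil- and mast-like and 0.0224% in megakaryocyte-like cells, and 0% in CMP- and pre-MegE-like, LMPP-like, erythroid-like, late granulocyte-like and monocyte-like cells. Fosb was lower in CVT pools in all 10 classes there, from -0.16 ± 0.65 in late granulocyte-like to -1.13 ± 0.33 in megakaryocyte-like cells. The log2 differences of Jund in these pools lay between -0.53 and 0.07. For the difference between the sets, 3 genes were called in CMP- and pre-MegE-like cells (0.0444%), 3 in basophil- and mast-like cells (0.0678%), 3 in megakaryocyte-like cells (0.0559%), 2 in GMP-like cells (0.0511%), 2 in MPP-like cells (0.0603%) and 1 in LMPP-like cells (0.0304%), all in the negative direction. Over all 8 pools none of the 10 was called in any class, where the share of all genes was 0% in 8 classes and 0.0169% in basophil- and mast-like cells besides the LTHSC-like value. DESeq2 called none of them either. The unadjusted p of edgeR was under 0.05 for 6 of the 10 in LMPP-like cells (281 higher and 273 lower of 9881 genes), 5 in GMP-like cells (266 and 214 of 9782), 5 in LTHSC-like cells (265 and 172 of 7555) and 5 in MPP-like cells (357 and 265 of 9953). The largest cluster of each class was the same in both housing groups.

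**Figure D3:**
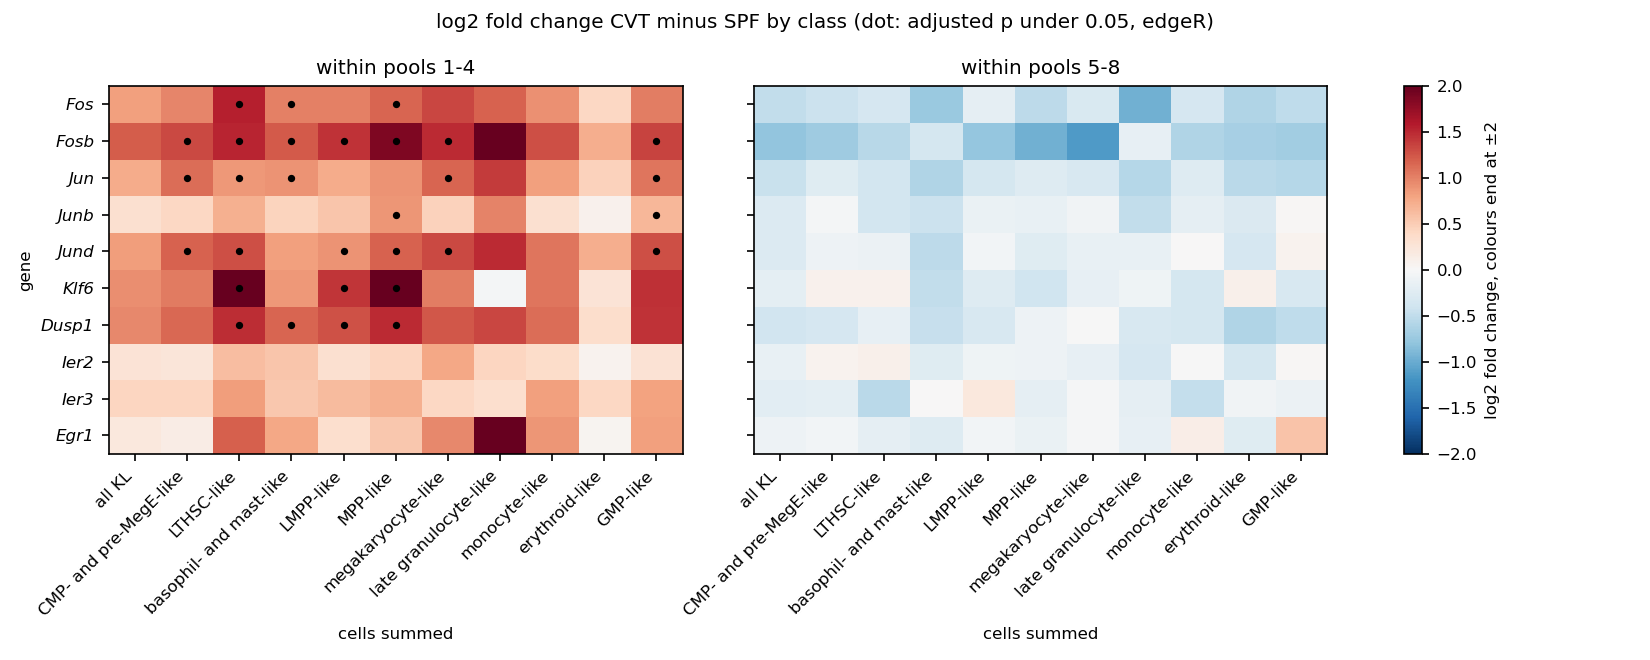
Log2 fold change of each gene (rows), CVT minus SPF, in all KL cells and in each class (columns), within pools 1 to 4 (left) and within pools 5 to 8 (right), with red for higher and blue for lower in CVT pools and a dot where edgeR's adjusted p was under 0.05. The left panel is red almost throughout with 6 dots each for LTHSC-like and MPP-like cells, and the right panel is pale or blue with no dot.

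Across progenitor states the genes were highest, relative to all UMIs of a class, in CMP- and pre-MegE-like, LTHSC-like and basophil- and mast-like cells. They were lowest in erythroid-like and GMP-like cells. The genes were chosen with their levels across states in view, so this order is a description. The summed level was 2025 ± 903 CPM in CMP- and pre-MegE-like cells (SD over 8 pools), 1880 ± 818 CPM in LTHSC-like cells and 1817 ± 811 CPM in basophil- and mast-like cells. LMPP-like cells (1122 ± 408 CPM), MPP-like cells (1119 ± 517 CPM) and megakaryocyte-like cells (928 ± 546 CPM) came next. Late granulocyte-like cells had 724 ± 287 CPM, monocyte-like cells 692 ± 210 CPM, erythroid-like cells 493 ± 132 CPM and GMP-like cells 477 ± 208 CPM, so that the highest class had 4.24 times the CPM of the lowest. CPM is a share of the UMIs of a class, and the classes differed in UMIs per cell. Pool medians were 14735 to 18666 UMIs in GMP-like and 4929.5 to 5664 in CMP- and pre-MegE-like cells. The 10 genes had 22986 UMIs in 2468 GMP-like cells, 32434 in 2716 CMP- and pre-MegE-like cells and 8887 in 1590 late granulocyte-like cells. Counted per cell, GMP-like and CMP- and pre-MegE-like cells lay closer together, and late granulocyte-like cells were below both. Compared within pools, the first 3 classes were close: CMP- and pre-MegE-like cells were above LTHSC-like cells in 6 of 8 pools, and these were above basophil- and mast-like cells in 6. The step down to LMPP-like cells was seen in 8 of 8 pools. LMPP-like cells were above MPP-like cells in 6 pools and late granulocyte-like above monocyte-like cells in 4, whereas monocyte-like cells were above erythroid-like cells in all 8. The erythroid-like and GMP-like levels were not told apart, with 4 pools each way. The same 3 classes were highest, and erythroid-like and GMP-like cells lowest, in each of the 6 other clusterings tried. Those clusterings used cells of the same pools, so they show only how the order depends on the clustering. Pool 4 was the highest pool in 10 of 10 classes and pool 6 the lowest in 9, with pool 1 the lowest in LTHSC-like cells. Both CVT pools were above both SPF pools of pools 1 to 4 for the summed level in 10 of 10 classes, and in pools 5 to 8 the groups overlapped in 10 of 10.

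**Figure D4:**
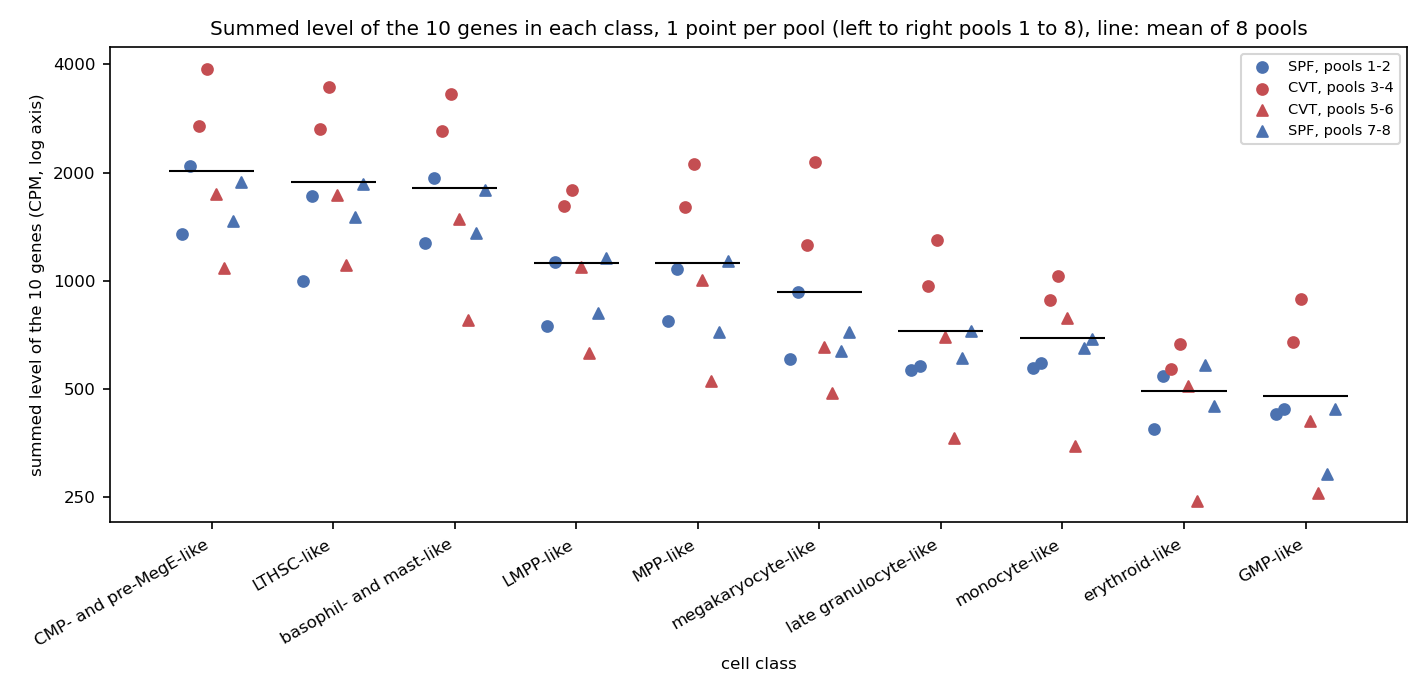
Summed level of the 10 genes in CPM (vertical axis, log scale) for each class of cells (horizontal axis, ordered by mean), with 1 point per pool, circles for pools 1 to 4 and triangles for pools 5 to 8, SPF in blue and CVT in red, and a line at the mean of 8 pools. The means fall from 2025 CPM in CMP- and pre-MegE-like to 477 CPM in GMP-like cells, and both red circles are above all other points in every class but erythroid-like cells.

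The single genes differed in the state where they peaked. Fos was highest in LTHSC-like cells, at 327 ± 200 CPM (SD over 8 pools), and lowest in erythroid-like cells, at 52.2 CPM, though CMP- and pre-MegE-like cells (300 ± 167 CPM) were within its spread and LTHSC-like cells were the higher in 5 of 8 pools. Junb also peaked in LTHSC-like cells, with 194 ± 63.9 CPM, and there the lead over CMP- and pre-MegE-like cells (133 ± 33.0 CPM) was seen in 8 of 8 pools. Jund had 271 ± 114 CPM in LTHSC-like and 268 ± 109 CPM in CMP- and pre-MegE-like cells, which did not differ beyond their spread, and 32.7 ± 15 CPM in GMP-like cells. Jun peaked in CMP- and pre-MegE-like cells at 626 ± 313 CPM, above basophil- and mast-like cells (519 ± 246 CPM) in 8 of 8 pools, and was lowest in late granulocyte-like cells at 108 ± 73.4 CPM. The level of Fosb was 155 ± 127 CPM in CMP- and pre-MegE-like and 150 ± 117 CPM in basophil- and mast-like cells, with an SD nearly as large as the mean, and 17.7 ± 24.4 CPM in late granulocyte-like cells.

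Egr1 had the steepest profile of the 10, from 91.6 ± 16.4 CPM in CMP- and pre-MegE-like cells to 6.28 ± 2.15 CPM in GMP-like cells, a 14.6-fold difference in CPM. Per cell the difference was smaller, with 1417 UMIs in 2716 cells against 285 UMIs in 2468. In LTHSC-like cells Egr1 had 63.1 CPM, below basophil- and mast-like cells (76.8 ± 22.3 CPM) in 6 of 8 pools. Klf6 peaked in basophil- and mast-like cells at 140 ± 75 CPM, 12 times the erythroid-like level of 11.7 ± 4.33 CPM. Late granulocyte-like cells (86.4 ± 12.5 CPM), LTHSC-like cells (85.1 ± 62.2 CPM) and CMP- and pre-MegE-like cells (81.6 ± 54.7 CPM) followed at like levels. Ier3 had its highest level in the same class, 105 ± 28.8 CPM, above LTHSC-like cells (67.4 ± 23.2 CPM) in 8 of 8 pools and 10.2 times that of erythroid-like cells. Dusp1 had 115 ± 67.0 CPM in CMP- and pre-MegE-like and 104 ± 58.8 CPM in LTHSC-like cells and its lowest level, 20.6 ± 14.8 CPM, in GMP-like cells. Ier2 was the only one highest in late granulocyte-like cells, with 235 ± 55.4 CPM, but LTHSC-like cells (231 ± 49.0 CPM) were as high within the spread, and the class order of Ier2 spanned just 3.39-fold. In the granulocyte lineage GMP-like cells were low in Egr1, Jund and Dusp1, and late granulocyte-like cells were also low in Egr1 (13.5 CPM) and Jund (41.1 CPM). The 2 classes parted in Klf6 and Ier2, which were high in late granulocyte-like cells and had 14.6 and 115 CPM in GMP-like cells.

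**Figure D5:**
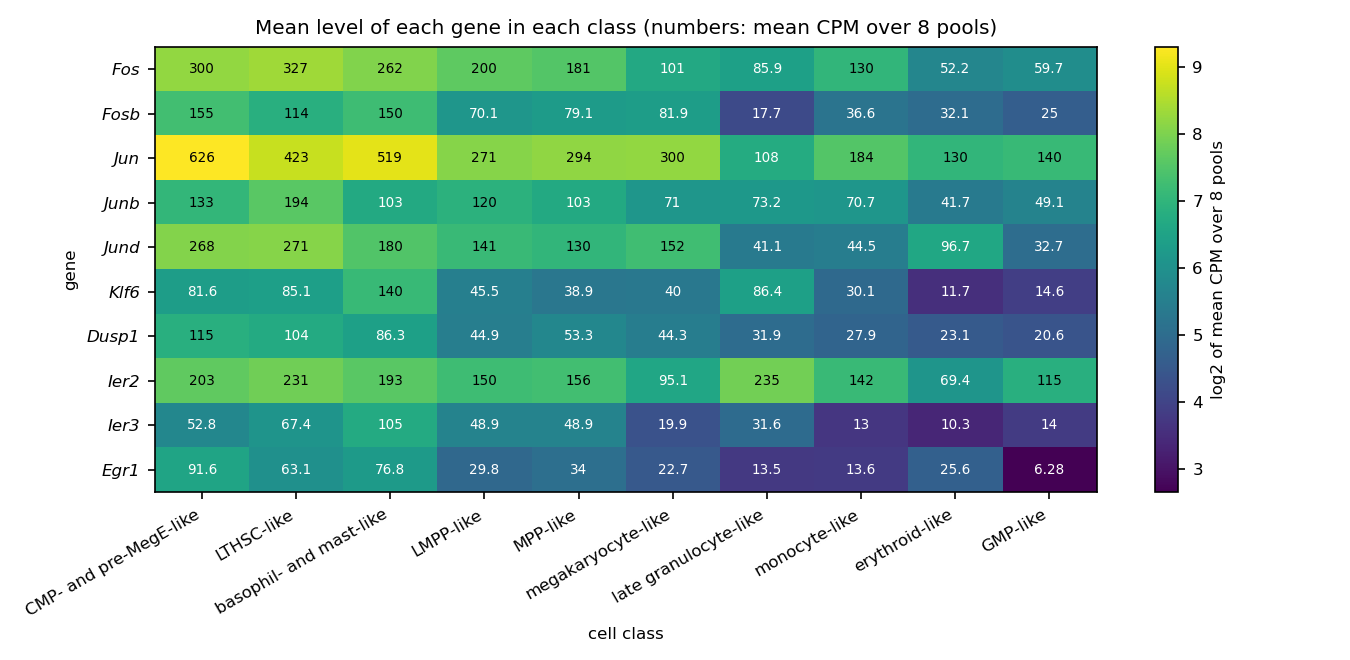
Mean level of each gene (rows) in each class (columns) in CPM over 8 pools, printed in each cell, with colour on a log2 scale from dark (low) to yellow (high). The 3 classes on the left hold the highest level of 9 genes, Ier2 is highest in late granulocyte-like cells (235 CPM), and Egr1 falls to 6.28 CPM in GMP-like cells.

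The share of KL cells with at least 5 of the 10 genes was again highest in pool 4 and lowest in pool 6. With each cell thinned to 2759 UMIs, 2.31% of KL cells in pool 6 and 20.5% in pool 4 had 5 or more of the genes (15.4% and 74.3% before thinning, at medians of 8415.5 and 12771.5 UMIs per cell). In LTHSC-like cells the thinned share was 2.20% and 20.6% in SPF pools 1 and 2, 46.7% and 58.0% in CVT pools 3 and 4, 18.4% and 6.76% in CVT pools 5 and 6, and 17.1% and 23.5% in SPF pools 7 and 8. Fosb was found in 46.7% and 55.6% of the thinned LTHSC-like cells of pools 3 and 4 and in 6.59% and 23.0% of those of pools 1 and 2. In GMP-like cells, which were deep (medians of 14735 to 18666 UMIs), the share with 5 or more genes was 0% to 3.28% after thinning, and no class is known to lack the genes, so the share that free RNA adds, which was not removed, could not be read from one. The largest share of the 10 genes' UMIs that 1 cell held was 0.321% in KL cells and 3.99% in LTHSC-like cells of a pool. In basophil- and mast-like cells, with as few as 22 cells in a pool, that share reached 12.7%.

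Other genes of the pathway were measured beside the 10. Of 13 further AP-1 and bZIP genes tested, none was called over all pools or in either set, the median log2 fold change was -0.02, and 5 were positive. Atf4, the stress-response factor, had the largest positive value of the list (0.21 ± 0.11) with 68.3 to 96.9 CPM in pools 1 to 4. Batf2 had 0.11, and Batf3 (-0.50 ± 0.30) and Jdp2 (-0.32 ± 0.23) stood at the other end. These genes had low levels, at most 0.87 CPM for Batf2, 0.96 CPM for Batf3 and 2.57 CPM for Jdp2 in any pool. Among 37 other immediate early genes tested none was called, 15 were positive, and the median was -0.04. Rhob, a small GTPase, was highest in pool 4 (50.6 CPM) and lowest in pool 6 (22.2 CPM) with a fold change of 0.33 ± 0.22. Cxcl2 had 0.40 ± 0.63 at levels of at most 2.22 CPM, Klf10 had -0.30 ± 0.10 and Sgk1 had -0.35 ± 0.17. The summed level of that list spanned 946 CPM in pool 6 to 1245 CPM in pool 5, a smaller range than the summed level of the 10. Of 21 upstream kinases and factors none was called and 13 were positive, with Srf, the serum response factor, at 0.16 ± 0.11, Map2k2 at 0.09, Mkl1 at -0.12 and Elk1 at -0.25. In LTHSC-like cells of pools 1 to 4, 23 of 28 tested genes of the immediate early list were positive with a median of 0.33, and 3 were called: Klf2 (1.51 ± 0.25), Btg2 (1.30 ± 0.21) and Zfp36 (1.16 ± 0.26), which were named after their values were seen. The medians of the AP-1 list and of the kinase list in these cells were 0.29 and 0.07, beside 1.24 for the 10 and 0.006 for all genes.

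Heat shock genes, which respond to handling as well as to physiological stress, moved in part with the 10. Hspa1a, the inducible HSP70, had 4.46, 18.7, 8.28 and 14.0 CPM in SPF pools 1, 2, 7 and 8 and 59.4, 122, 22.7 and 3.57 CPM in CVT pools 3, 4, 5 and 6, with its highest level in pool 4 and its lowest in pool 6 as for Fos. Its log2 fold change was 2.21 ± 0.84 and that of Hspa1b 1.36 ± 0.51, neither of them called, and within pools 1 to 4 Hspa1a was called in 5 of 10 classes (2.34 to 3.82). The list of 14 heat shock and handling genes as a whole had 10 positive members, a median of 0.12 and no call, with Hsph1 (-0.14) and Dnaja1 (-0.11) lowest. In LTHSC-like cells of pools 1 to 4, 5 of its 10 tested genes were positive and none was called. Their median was 0.011, beside 1.24 for the 10 immediate early genes. Between the sets of pools, 7 of the 14 were called lower in pools 5 to 8 than in pools 1 to 4 (median -0.37), beside none of the 10. Of all 13092 genes 20.2% were called in that contrast, 1273 of them lower and 1373 higher. The summed level of the list was 6404 CPM in pool 6 to 9393 CPM in pool 4. The part of handling, of the order of processing and of sorting in the levels of the 10 genes was not tested. Markers of other cells differed too. All 12 genes of mature granulocytes had negative fold changes in pools 1 to 4 (median -1.02), Retnlg with -1.04 and Mmp8 with -0.78 over all pools being the lowest and Camp (-0.37) and Cxcr2 (-0.32) the highest, and their defining members were present in all pools. In the late erythroid list of 7 genes Alas2 (-0.66) and Hba-a2 (-0.63) had the lowest fold changes and Slc4a1 (0.06) the highest, with Alas2 at 0.21 to 8.02 CPM. Of 8 lymphoid genes, Gzma (-2.08), Ms4a1 (-1.33) and Ms4a4b (-0.20) were negative and Nkg7 was 0.08, and Ms4a1 reached at most 2.47 CPM. The sort markers Kit (-0.10, 56.8 to 87.2 CPM), Ptprc (-0.24), Ly6g (-0.74) and Cd4 (-0.74) were not called. The part of these other cells in the levels of the 10 genes was not tested.

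Genes with a profile like that of the 10 were sought by Pearson's r between log2 CPM and the mean of the 10 standardised profiles, as a description without a test. Over 80 profiles of class and pool, which share their libraries, and 5032 genes of at least 20 CPM, the 8 closest were Taf7 (r = 0.864), Btg2 (0.853), Clk1 (0.849), Neat1 (0.835), Rlim (0.835), Pnrc1 (0.833), Chkb (0.824) and Rgs1 (0.824). Over the 8 KL pools and 4983 genes they were Zfp36 (0.947), Ccl3 (0.927), Pcf11 (0.917), Exosc10 (0.917), Rhob (0.910), Rgs1 (0.908), Tob2 (0.908) and Rgs2 (0.905). Zfp36, an RNA-binding protein that destabilises AU-rich transcripts, Ccl3, Btg2 and Rhob stand on the list of other immediate early genes. Among the 10 themselves, r between a gene and the mean of the other 9 over the KL pools ran from 0.781 for Egr1 to 0.986 for Dusp1, with 0.982 for Fos, 0.951 for Jun and 0.83 for Fosb.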

How the data were processed

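Single-cell RNA-seq (10x Genomics 3′ v2) of KL cells from 8 pools was analysed. The authors aligned the reads with Cell Ranger (no version given, build mm9 per the labels) and deposited UMI counts per gene and cell, whole numbers without normalization, for 29891 cells. All cells were used. UMI counts were summed per pool, and per pool and class, divided by the pool's total (CPM) for levels, and tested with edgeR 4.0.16 (filterByExpr, TMM, glmQLFit and glmQLFTest, Benjamini-Hochberg over all genes tested, threshold 0.05). The main fit had housing alone, and a fit of 4 groups of 2 pools gave the contrasts within pools 1 to 4 and 5 to 8 and their difference. The depth was 19041749 to 59812346 UMIs per pool, and precision is given by SD over pools or by edgeR's SE, where mice within a pool cannot be separated.

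Cells were clustered on 1000 variable genes, 30 principal components and 30 neighbours (Leiden, resolution 2; scanpy 1.11.5, leidenalg 0.10.2), without the 10 genes and the lists of their relatives and of heat shock genes, and named by marker lists. 2876 cells stayed without a name. Scrublet marked 92 cells (0.308%) as doublets, too few for it to have worked, so doublets were treated as not removed. A barcode was shared by pools for 1048 cells (3.51%).

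The genes and lists were chosen with earlier results of these data known. Besides the 10, the text names the 2 highest and 2 lowest fold changes of each other list, the 8 genes with the closest profiles over class-by-pool sums and over KL pools, and the sort markers, and says where a gene was named after its values were seen. 1 gene that this rule selects is not reported here. Alternatives were RLE size factors, total UMIs only, every gene with a UMI, DESeq2 1.42.0, the pool set as a block, each set alone, filters on cells (1000 genes, 10% mitochondrial UMIs), doublets, the top 5% of cells by UMIs or late granulocytes left out, thinning to 2759 UMIs, equal class shares, other clusterings, and each pool left out. Leaving out the top cells, the late granulocytes, the TMM factor and single pools from the fit of 4 groups was chosen after seeing the data. edgeR was tested on simulated data. Other tools were R 4.3.3, Python 3.11.15, scikit-learn 1.9.0, igraph 0.11.9, scipy 1.17.1 and numpy 2.4.6.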

Additional observations from a re-analysis of the deposited data

Results flagged for a closer look

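The difference in housing contrast between the pool sets (pools 5 to 8 minus pools 1 to 4, log2 scale, edgeR's interaction test at an adjusted p of 0.05) singled out 22 combinations of gene and class, all negative. In LTHSC-like cells they were Fosb (-2.07), Klf6 (-1.97), Fos (-1.88), Dusp1 (-1.65), Jund (-1.41), Ier3 (-1.38), Jun (-1.23) and Junb (-1.07). Fosb was also singled out in MPP-like (-2.83), megakaryocyte-like (-2.62), LMPP-like (-2.21), GMP-like (-2.06), CMP- and pre-MegE-like (-2.04) and basophil- and mast-like cells (-1.58). Jun was so in GMP-like (-1.64), basophil- and mast-like (-1.49), megakaryocyte-like (-1.48) and CMP- and pre-MegE-like cells (-1.37), Jund in megakaryocyte-like (-1.45), MPP-like (-1.42) and CMP- and pre-MegE-like cells (-1.27), and Fos in basophil- and mast-like cells (-1.75). In KL cells Fosb was singled out because both CVT pools were above both SPF pools in pools 1 to 4 and below them in pools 5 to 8 (ratio 0.575); that difference of direction was not called by the interaction test in KL cells. The genes had been chosen with these contrasts in view. No pool stood out within its group among the 20 groups of 4 pools tested by Dixon's criterion. With 4 pools per group the criterion can flag only a pool far from the rest, so this result does not clear any pool.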

How the results depend on the processing

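In KL cells the count of genes called was 0 in the reported fit, 4 with the pool set as a block, 15 with DESeq2 and 146 with pools 1 to 4 alone, where 1 of the 10 genes was called, Jund (0.83). In pools 5 to 8 alone the fold change became negative for all 10: Fos (-0.47), Fosb (-0.77), Jun (-0.42), Junb (-0.26), Jund (-0.25), Klf6 (-0.18), Dusp1 (-0.36), Ier2 (-0.13), Ier3 (-0.19) and Egr1 (-0.084). With total UMIs only, Junb was -0.00058. Scaling moved the median of all genes from -0.012 to -0.0003 (RLE) or -0.063 (total UMIs). Of 210 values of the 10 genes under alternatives, 192 kept their sign.

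Without a filter on low counts, classes gave more calls: 25 genes (6 of the 10) in CMP- and pre-MegE-like, 39 (7) in GMP-like, 46 (7) in LMPP-like, 28 (5) in LTHSC-like, 40 (7) in MPP-like, 24 (1) in basophil- and mast-like, 31 (2) in late granulocyte-like and 67 (6) in megakaryocyte-like cells and 1 in erythroid-like cells; the cause was not tested. With the block the counts were 9, 3, 3, 9 and 7 in CMP- and pre-MegE-like, LMPP-like, LTHSC-like, MPP-like and basophil- and mast-like cells. DESeq2 gave 0 in LTHSC-like and 1 each in erythroid-like and monocyte-like cells.

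Leaving out 1 pool in turn, the fold changes in KL cells ranged from -0.079 to 0.55 for Fos, 0.15 to 0.96 for Fosb, -0.064 to 0.53 for Jun, -0.064 to 0.24 for Junb, 0.14 to 0.52 for Jund, 0.050 to 0.65 for Klf6, 0.054 to 0.67 for Dusp1, -0.017 to 0.20 for Ier2, 0.0086 to 0.22 for Ier3 and -0.096 to 0.22 for Egr1. Genes called ranged from 0 to 0 in KL cells, 0 to 8 in CMP- and pre-MegE-like, 0 to 3 in GMP-like, 0 to 4 in LMPP-like, 1 to 8 in LTHSC-like, 0 to 10 in MPP-like, 1 to 5 in basophil- and mast-like, 0 to 5 in megakaryocyte-like and 0 to 1 in monocyte-like cells, of which up to 3 were among the 10. In the fit of 4 groups they ranged from 0 to 72 in KL cells and 11 to 39 in LTHSC-like cells of pools 1 to 4, and from 0 to 2 and 0 to 9 in pools 5 to 8. For the difference between sets they ranged from 0 to 1 and 0 to 22, with 0 to 8 of the 10 in LTHSC-like cells.

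No paired analysis was possible because a shared replicate number does not join a CVT pool to an SPF pool. With 2 pools per group within a set, and 2 or 3 mice per pool, the spread between pools rests on few samples, and depth leaves low genes such as Egr1 in GMP-like cells with few UMIs.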
